A study of Mus musculus with 2 samples.

Results

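The myeloid barcodes of mouse endometrium on day 3 of pregnancy numbered 232 of 7908 deposited cell barcodes, 163 in the library of Erbb3 f/f females, called control below, and 69 in the library of Erbb3 d/d females. They were chosen by measured values. A barcode was taken when at most 10% of its UMIs (unique molecular identifiers, counted molecules) were mitochondrial and when Ptprc, Csf1r, Stab1, Cyth4, Pirb, Nckap1l, Dock2 and Cd74 together had at least 2 UMIs. Their sum also had to exceed that of each of 4 other marker sets, for epithelial, stromal, mesothelial and endothelial cells. The UMIs of these 8 genes are therefore a description of the choice, and genes that accompany them in the same barcodes are described without a test.

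Macrophages are tissue phagocytes that clear dying cells, process lipid and iron, and present antigen on MHC class II molecules. In the uterus they live beside the stroma, vessels and glands, depend on signals through the CSF1 receptor, and are known to respond to the hormones of early pregnancy. Monocytes, dendritic cells and granulocytes belong to the same broad lineage and share many of its genes.

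The study asked how Erbb3 of the stroma shapes uterine glands. Erbb3 is a receptor of the ErbB family. Control mice carried floxed Erbb3 alleles (f/f), and in d/d mice the labels state that Erbb3 was deleted in the stroma; the Cre driver is not given in the sources used here. Both groups were pregnant females, endometrium was collected at 9 AM on day 3, and the minced tissue was fixed first and dissociated afterwards. Each genotype was 1 library, and the number of mice behind a library was not stated, so every difference between genotypes below is a difference between 2 preparations, has no replicate check, and has no p-value. Intervals are 95% intervals for counting error only.

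After barcodes above the mitochondrial limit were left out, 5503 control and 1830 d/d barcodes remained, with 5517795 and 1712695 UMIs. The myeloid barcodes held 155768 UMIs in the control and 66910 in d/d. Their median depth was 731 UMIs in the control and 751 in d/d, against 811 and 765 in the other kept barcodes. Their median mitochondrial share was 1.82% in the control and 3.65% in d/d, against 0.72% and 0.95% in the other kept barcodes. The libraries shared no full barcode; 158 barcodes agreed in their first 16 bases, among them 5 control and 4 d/d myeloid barcodes. In stromal-gated barcodes Erbb3 had 56 UMIs among 2076 barcodes in the control and 6 UMIs among 568 in d/d. These were 25.0 and 9.79 CPM (UMIs per 1000000 UMIs of the same barcodes). Lower d/d values were not confined to that gate. Erbb3 was at 62.1 and 27.1 CPM in barcodes that passed no gate and at 81.3 and 57.8 CPM in epithelial-gated barcodes. Whether its probes lie in the deleted part was not stated. The myeloid barcodes themselves had 1 Erbb3 UMI in each library.

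Of the genes that chose the barcodes, Cyth4, a guanine exchange factor of leukocytes, was the most widely detected, with 249 UMIs in 117 of 163 control barcodes and 101 UMIs in 48 of 69 d/d barcodes. Cd74, the invariant chain of MHC class II, had 280 UMIs in 88 control barcodes and 99 in 29 d/d barcodes. Stab1, a scavenger receptor of macrophages and of some endothelium, had 140 UMIs in 57 barcodes and 54 in 25. Both libraries thus supplied the choice with the same genes, mostly at 1 to a few molecules per barcode. Dock2 and Nckap1l, which drive actin remodelling in blood cells, had 86 and 80 UMIs in the control and 36 and 22 in d/d. Pirb, an inhibitory receptor, had 74 and 24 UMIs, and its reads may include those of the near-identical Pira genes. Ptprc, the pan-leukocyte antigen CD45, had 60 and 23 UMIs, and Csf1r, the CSF1 receptor, had 48 in 38 barcodes and 15 in 13 barcodes. Together the 8 genes made up 6529 CPM in the control and 5590 CPM in d/d, against 176 and 233 CPM in the other kept barcodes.

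The choice was thin for many barcodes. The median sum of the 8 genes was 5 UMIs in both libraries, and the highest sum was 67 in the control and 23 in d/d. A sum of exactly 2 UMIs, just inside the threshold, was found in 27 control and 10 d/d barcodes, and a sum of 1 without any UMI of the other sets, just outside, in 30 and 14 barcodes. The macrophage list described below was detected in 14 of the 27 and 5 of the 10 barcodes just inside, and in 8 of the 30 and 4 of the 14 just outside. Another 23 control and 13 d/d barcodes tied with another set, and 150 and 67 held at least 2 marker UMIs but more of another set. At least 1 UMI of Csf1r, Stab1 or Pirb was held by 96 control and 37 d/d barcodes, and 70 and 35 had no UMI of any of the other 4 sets.

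Macrophage genes outside the choice were found in most of the barcodes. At least 1 UMI of 21 macrophage genes was present in 129 of 163 control barcodes, 79.1% (72.1 to 85.1%), and in 51 of 69 d/d barcodes, 73.9% (61.9 to 83.7%). Epithelial-gated barcodes, which should lack these genes and were deeper (median 982 UMIs in the control and 929 in d/d), gave 25.6% and 16.3%. With every barcode thinned to 500 UMIs the shares were 67.5% and 64.7% in myeloid barcodes and 12.9% and 8.27% in epithelial-gated barcodes; 1 d/d myeloid barcode and 1 control epithelial-gated barcode were too shallow and were left out. Macrophage genes were therefore detected in most but not all of the barcodes, with the epithelial gate as the only background given. That gate is low in Maf. Of 1387 control and 465 d/d Maf UMIs in other kept barcodes, 86 and 28 lay in epithelial-gated barcodes. Shares of the list in the stromal, endothelial and mesothelial gates are not given here.

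**Figure D1:**
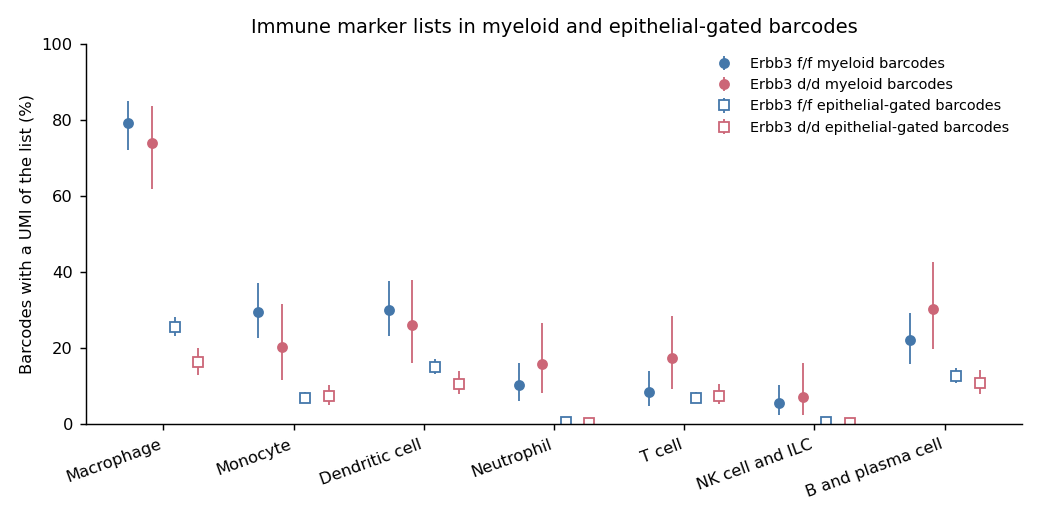
Share of barcodes (%, vertical axis) with at least 1 UMI of 7 immune marker lists (horizontal axis), in myeloid barcodes (filled circles) and epithelial-gated barcodes (open squares) of the f/f and d/d libraries; bars are exact binomial 95% intervals. The macrophage list was detected in 79.1% and 73.9% of the myeloid barcodes, and the intervals of the f/f and d/d myeloid barcodes overlap for every list.

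Within the macrophage list, Maf, a transcription factor of resident macrophages that other cells also use, had 134 UMIs in the control and 61 in d/d. Its level was 860 and 912 CPM, against 259 and 283 CPM in all other kept barcodes. C1qb, a chain of the complement protein C1q, had 74 UMIs in 44 control barcodes and 43 UMIs in 23 d/d barcodes, and Lyz2, lysozyme of phagocytes, had 73 and 27 UMIs. Ms4a7, a membrane protein of mature macrophages, had 45 and 16 UMIs, Mertk, a receptor for dying cells, 33 and 11, and Adgre1, the F4/80 antigen, 21 and 8. Cd14 of the same list went the other way, with 7 and 1 UMIs. It was at 44.9 and 14.9 CPM, against 89.9 and 40.1 CPM in all other kept barcodes. Markers of some tissue-resident subsets were close to absent: Cd163 had 1 UMI in the control and 0 in d/d, Timd4 1 and 0, Folr2 3 and 1, and all 4 Lyve1 UMIs lay in 1 d/d barcode. A count of 0 allows up to 3 UMIs, which is 19.3 CPM in the control and 44.8 CPM in d/d.

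Markers of other myeloid lineages were also detected; the lists differ in genes and probes, so their shares are not ranked. The monocyte list was detected in 48 control and 14 d/d barcodes (29.4% and 20.3%), with 6.88% and 7.33% in epithelial-gated barcodes. Plac8, the gene of this list with the most UMIs, had 25 and 6, and 11 of the 25 lay in 1 barcode. Its level was 160 and 89.7 CPM, against 123 and 94.2 CPM in all other kept barcodes. Ccr2, the receptor that draws monocytes into tissue, had 21 and 5 UMIs, 135 and 74.7 CPM, against 1.68 and 4.86 CPM. The dendritic list was detected in 49 and 18 barcodes (30.1% and 26.1%), with 15.2% and 10.6% in epithelial-gated barcodes. Its leading gene, Clec9a, a receptor of cross-presenting dendritic cells, had 87 UMIs in 17 control barcodes and 11 UMIs in 3 d/d barcodes. Of the 11 d/d UMIs 9 lay in 1 barcode, and the d/d share of 4.35% was close to the 4.02% of d/d epithelial-gated barcodes with a Clec9a UMI. Its level was 164 CPM in d/d myeloid barcodes and 37.7 CPM in all other kept d/d barcodes, so the d/d value rests on that barcode. Elsewhere in the dendritic list, Flt3 had no UMI, Xcr1 and Ccr7 had 1 and 0 UMIs each, and Itgax 0 and 4. Batf3 had 23 and 8 UMIs, 148 and 120 CPM, against 6.15 and 6.08 CPM in all other kept barcodes. Naaa had 18 and 2 UMIs, 116 and 29.9 CPM, against 88.8 and 63.8 CPM. Naaa was detected in 12.3% and 6.38% of epithelial-gated barcodes. The neutrophil list rested on Csf3r, the G-CSF receptor, with 25 and 13 UMIs; S100a8, S100a9 and Ly6g had none. Siglecf, Prg2, Epx, Ccr3 and Il5ra of eosinophils, and Cpa3, Mcpt4, Cma1, Tpsb2, Ms4a2 and Fcer1a of mast cells, also had no UMI. The other detected genes of these 2 lists were not higher in myeloid barcodes than elsewhere, apart from Kit. Hdc, which makes histamine, had 92 and 13 UMIs, 591 and 194 CPM, against 955 and 522 CPM in all other kept barcodes. Alox15, a lipoxygenase, had 12 and 8 UMIs, 77.0 and 120 CPM, against 135 and 349 CPM. Kit, a receptor of mast cells, had 3 and 1 UMIs.

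Lymphoid markers were present in a minority. The T-cell list was detected in 14 control and 12 d/d barcodes, 8.59% and 17.4%, against 7.04% and 7.57% of epithelial-gated barcodes. The NK and innate lymphoid list was detected in 9 and 5 barcodes, 5.52% and 7.25%, against 0.663% and 0.473%. None of its UMIs lay in barcodes with Csf1r, Stab1 or Pirb: 0 of 96 in the control and 0 of 37 in d/d, which allow shares of up to 3.13% and 8.11%, against 13 and 17 UMIs in the remaining 67 and 32 barcodes. The B and plasma list was detected in 36 and 21 barcodes, 22.1% and 30.4%, against 12.7% and 10.9%, led by Igha, the IgA heavy chain, with 34 UMIs in each library. A lymphoid list without any macrophage gene was found in 16 control and 14 d/d barcodes. The rule thus also took in barcodes with lymphoid genes, and their part in the differences below was not tested beyond leaving out every barcode with a lymphoid UMI.

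Myeloid barcodes made up 2.96% of kept barcodes in the control (2.53 to 3.44%) and 3.77% in d/d (2.95 to 4.75%), a difference of 0.81 percentage points (-0.15 to 1.88). The interval of this difference includes 0. Among barcodes that passed a gate the shares were 4.48% and 6.19%, a difference of 1.71 points (0.19 to 3.42), which excludes 0. The share of kept barcodes that passed no gate was 5.25 points higher in d/d (2.68 to 7.85), so the result depends on the denominator. Per 100 stromal-gated barcodes there were 7.85 myeloid barcodes in the control and 12.1 in d/d, a log2 ratio of 0.63 (0.20 to 1.06). Per 100 epithelial-gated barcodes there were 13.5 and 16.3, a log2 ratio of 0.27 (-0.16 to 0.71). Per 100 endothelial-gated barcodes the numbers were 115 and 172.5 (log2 ratio 0.59, -0.06 to 1.24). The stromal-gated share of kept barcodes was itself different, by -6.69 points in d/d minus control, so the ratio to stroma moves with both cell types; more myeloid cells and fewer recovered stromal cells cannot be told apart.

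Genes were compared after summing UMIs over the myeloid barcodes of a library. Of 3564 genes that reached 20 UMIs in the 2 libraries together, the 8 genes of the rule left out, 205 were more than 4-fold higher in CPM in myeloid barcodes than in all other kept barcodes in both libraries, 5.75% of the genes counted. The same barcodes chose these genes through the rule, so their enrichment is a description. The 20 leading genes had a log2 excess over the other barcodes of at least 4.52 in the library where it was smaller, and most of them are known leukocyte genes. Spi1, which encodes the myeloid master regulator PU.1, had 14 UMIs in 13 control barcodes and 7 in 7 d/d barcodes. Surface receptors were Fcrls (25 and 19 UMIs), Lilrb4a (40 and 18), Lair1 (23 and 11), Cd72 (27 and 15), Il10ra, the receptor for interleukin 10 (33 and 13), Csf3r (25 and 13), Ms4a6c (25 and 8) and Clec2i (22 and 5). Itgb2, the beta chain of leukocyte integrins, had 35 and 24 UMIs. Lilrb4a, Ms4a6c and Clec2i belong to families of near-identical genes whose counts may be shared.

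Enzymes and signalling proteins completed the leading genes. Hpgds, which makes prostaglandin D2, was detected in 58 control barcodes with 105 UMIs and in 22 d/d barcodes with 32 UMIs, against 1.33% and 0.473% of epithelial-gated barcodes. Myo1f and Myo1g, unconventional myosins of leukocytes, had 71 and 34 UMIs in the control and 23 and 12 in d/d. Ncf4, a subunit of the phagocyte NADPH oxidase, had 25 and 17 UMIs, and C1qc, another C1q chain, 13 and 7. Sash3 and Arhgap15, of lymphoid and myeloid signalling, had 17 and 18 UMIs in the control and 10 in d/d each. Cyp4f18, a fatty acid hydroxylase, had 12 and 11 UMIs, Amz1, a metalloprotease, 16 and 7, and Gpr162, an orphan receptor, 18 and 5. For all 20 the interval of the log2 ratio (d/d over control) included 0.

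Because the gene for PU.1 was among the leading genes, promoters were searched for GAGGAAGT, a purine-rich core of the kind PU.1 binds, on both strands within 250 bases before the gene start. RefSeq (build GRCm38.p6) gave such a window for 157 of the 205 enriched genes, and 15 of these, 9.55%, held the motif. It was held by 2.15% of the 2879 windows of all genes counted and by 2.29% of 14085 windows in all. Among the leading genes with a window it was found in Cd72, Hpgds and C1qc, and among the genes of the rule in Pirb. The windows of Pirb (chr7:3720383-3720632, minus strand) and Cd72 (chr4:43454627-43454876, minus strand) are shown as examples, 5′ to 3′ along the gene, with the motif or its reverse complement ACTTCCTC in capitals. A match describes these letters and is not a measured binding site.
Pirb: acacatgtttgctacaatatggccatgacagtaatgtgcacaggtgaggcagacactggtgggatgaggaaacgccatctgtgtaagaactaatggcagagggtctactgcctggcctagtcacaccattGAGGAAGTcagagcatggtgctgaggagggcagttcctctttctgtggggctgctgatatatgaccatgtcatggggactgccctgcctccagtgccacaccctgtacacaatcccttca
Cd72: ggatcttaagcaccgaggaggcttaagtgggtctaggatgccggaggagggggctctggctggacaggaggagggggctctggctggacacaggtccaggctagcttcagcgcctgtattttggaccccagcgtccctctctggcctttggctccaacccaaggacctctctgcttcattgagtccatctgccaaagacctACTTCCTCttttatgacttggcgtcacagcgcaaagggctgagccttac

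Between genotypes, 169 of the 3564 genes (4.74%) were more than 2-fold higher in d/d than in the control myeloid barcodes and 350 (9.82%) were more than 2-fold lower, with a median log2 ratio of -0.06. Of the 205 enriched genes, 16 were higher and 16 lower, 7.80% each, with the same median. Counting error alone gives a spread of log2 ratios of 0.59 (SD), against 0.74 observed, so most single genes cannot be placed at this depth. Over the 185 genes with at least 100 UMIs the observed SD was 0.61 and the counting SD 0.28.

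The 2 class II beta chains of antigen presentation were lower in d/d myeloid barcodes beyond counting error. H2-Ab1, a class II beta chain, had 87 UMIs in 52 control barcodes and 18 UMIs in 8 d/d barcodes, which is 559 and 269 CPM, a log2 ratio of -1.05 (-1.87 to -0.31). A UMI was found in 31.9% of control and 11.6% of d/d myeloid barcodes, against 1.08% and 2.60% of epithelial-gated barcodes. H2-Eb1, the other class II beta chain, had 116 UMIs in 56 control barcodes and 25 in 13 d/d barcodes (log2 ratio -1.0, -1.68 to -0.36), and H2-Aa, the alpha chain, had 35 and 8 UMIs (-0.91, -2.23 to 0.22). The lower levels did not extend over the whole list: Ctss, the protease that trims the invariant chain, had 64 and 44 UMIs (0.68, 0.09 to 1.25), and H2-K1 of class I had 135 and 75 (0.37, -0.06 to 0.79). The highest of the list, H2-D1 of class I, had 23 and 17 UMIs (0.78, -0.21 to 1.75). Of 9 antigen presentation genes counted, 1 was past 2-fold lower and none past 2-fold higher, beside 9.82% and 4.74% of all genes counted, and the median log2 ratio was -0.37. The direction of this median was not stable: it was 0.34 at a marker sum of 3, 0.25 without Cd74 in the rule, 0.44 without barcodes with a lymphoid UMI and 0.0797 without the 2 dominant barcodes described below.

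Mrc1, the mannose receptor CD206 of tissue macrophages, had 37 UMIs in 31 control barcodes, at most 2 in any barcode, and 3 UMIs in 3 d/d barcodes. These were 19.0% and 4.35% of the myeloid barcodes, against 0.249% and 0.946% of epithelial-gated barcodes. The level was 238 CPM in the control and 44.8 CPM in d/d, a log2 ratio of -2.41 (-4.75 to -0.75). The Mrc1 ratio in all other kept barcodes was -0.10 (-1.28 to 0.94), and the 2 intervals overlap in part. The lower Mrc1 level in d/d myeloid barcodes was not carried by single barcodes. In the 96 control and 37 d/d barcodes with a Csf1r, Stab1 or Pirb UMI, Mrc1 had 31 and 1 UMIs, a log2 ratio of -3.70 (-9.05 to -1.11). H2-Ab1 had 62 of its 87 control UMIs and 6 of its 18 d/d UMIs there, a log2 ratio of -2.11 (-3.61 to -0.91). Most d/d UMIs of H2-Ab1 thus lay in the remaining myeloid barcodes, for which a ratio is not given. The rest of the scavenging and efferocytosis list was closer to 0: Axl, a receptor for dying cells, had 198 and 74 UMIs (-0.20, -0.61 to 0.19), Mertk 33 and 11 (-0.37, -1.50 to 0.65) and Lrp1 50 and 17 (-0.34, -1.22 to 0.48). Itgav, an integrin used in the uptake of dying cells, was the highest, with 31 and 20 UMIs (0.59, -0.30 to 1.44). Mrc1 was the 1 of 8 counted genes (12.5%) past 2-fold lower, beside 9.82% of all genes counted. None was past 2-fold higher, beside 4.74%, and the list's median was -0.35.

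Apoe and Gpnmb had higher levels in d/d. Apoe, the lipid carrier secreted by macrophages, had 312 UMIs in 108 control barcodes and 272 UMIs in 44 d/d barcodes, which is 2003 and 4065 CPM, a log2 ratio of 1.02 (0.78 to 1.26). All other kept barcodes also had more Apoe in d/d, 225 and 337 CPM, a log2 ratio of 0.58 (0.43 to 0.73). Similar shares of the barcodes held a UMI, 66.3% and 63.8%, so the excess lay in UMIs per positive barcode. Single d/d barcodes held 17, 21, 35 and 48 Apoe UMIs, whereas no control barcode held more than 11. The Apoe ratio without all of these barcodes was not computed. Gpnmb, a glycoprotein of lysosomes and lipid-laden macrophages, had 20 UMIs in 13 control barcodes and 45 in 15 d/d barcodes, 7.98% and 21.7% of them, against 0.663% and 0% of epithelial-gated barcodes (0 of 423 in d/d, which allows a share of up to 0.709%). Its log2 ratio was 2.39 (1.60 to 3.23) and was 0.00 in all other kept barcodes.

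**Figure D2:**
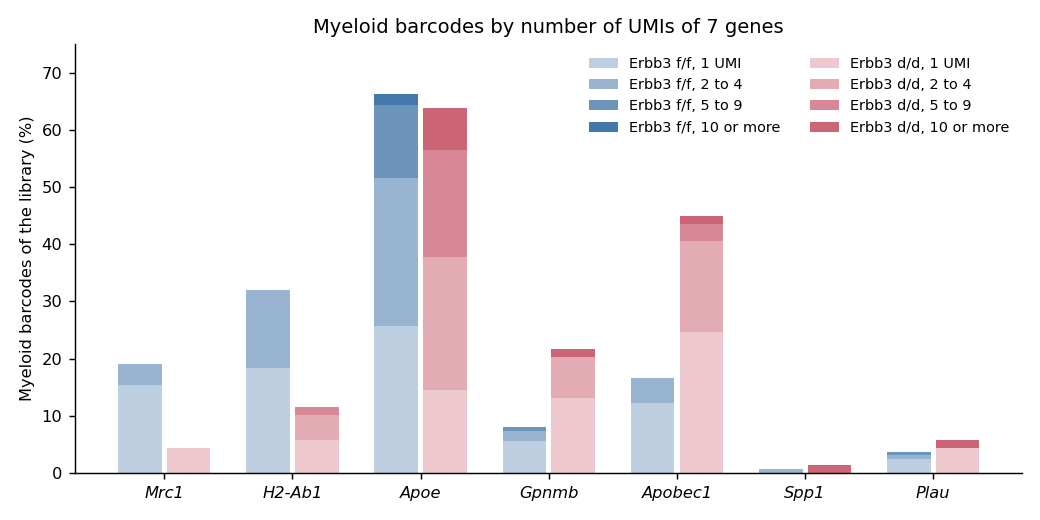
Share of the myeloid barcodes of each library (%, vertical axis) that held UMIs of 7 genes (horizontal axis), split by UMIs per barcode (darker shades, more UMIs), f/f in blue and d/d in red. Mrc1 and H2-Ab1 were found in fewer d/d barcodes, Gpnmb and Apobec1 in more, and Spp1 in 1 barcode per library. Apoe was found in like shares, with single d/d barcodes of 17 to 48 UMIs and at most 11 in any f/f barcode.

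Part of this excess came from a single d/d barcode of 2263 UMIs, with a marker sum of 10. It held all 23 d/d UMIs of Spp1, which encodes osteopontin, 24 of 27 of Plau, which encodes urokinase, 21 of 45 of Gpnmb, 18 of 35 of Lgals3, which encodes galectin 3, 48 of 272 of Apoe and 16 of 63 of Ctsb, a lysosomal protease. In control, Spp1 had 3 UMIs, all in 1 barcode, and Plau 14 UMIs in 6 barcodes. The Spp1 log2 ratio of 4.16 (2.43 to 6.54) and the Plau log2 ratio of 2.17 (1.18 to 3.21) thus describe 1 barcode. With this barcode and 1 dominant control barcode left out, an alternative chosen after seeing the data, Gpnmb remained higher in d/d at a log2 ratio of 1.5 (0.58 to 2.43) and Apoe at 0.76 (0.50 to 1.01). That control barcode, of 3620 UMIs, held 42 of 280 Cd74 UMIs, 18 of 25 of Ace, 17 of 25 of Cebpb and 14 of 19 of Nr4a1, an immediate early gene whose log2 ratio of -3.03 (-8.41 to -0.38) rests on it.

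Apobec1, an RNA-editing cytidine deaminase of enterocytes and macrophages, was found more widely in d/d: 35 UMIs in 27 control barcodes and 65 UMIs in 31 d/d barcodes, 16.6% and 44.9% of them. Its level was 225 and 971 CPM, a log2 ratio of 2.11 (1.5 to 2.75). All other kept barcodes also had more in d/d, 14.7 and 48.6 CPM, a log2 ratio of 1.72. The difference in this gene is thus not particular to the myeloid barcodes. The remaining iron and lipid genes lay on both sides: Fth1, the ferritin heavy chain, had 58 and 44 UMIs (0.82, 0.22 to 1.41), of which 18 were in the barcode named above, whereas Blvrb, of haem breakdown, had 18 and 4 (-0.95, -2.97 to 0.65) and Slc11a1, a metal transporter of phagosomes, had 49 and 16 (-0.40, -1.31 to 0.44). Of 11 counted, 1 (9.09%) was past 2-fold higher, beside 4.74% of all genes, and none past 2-fold lower, beside 9.82%. The median was 0.30.

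**Figure D3:**
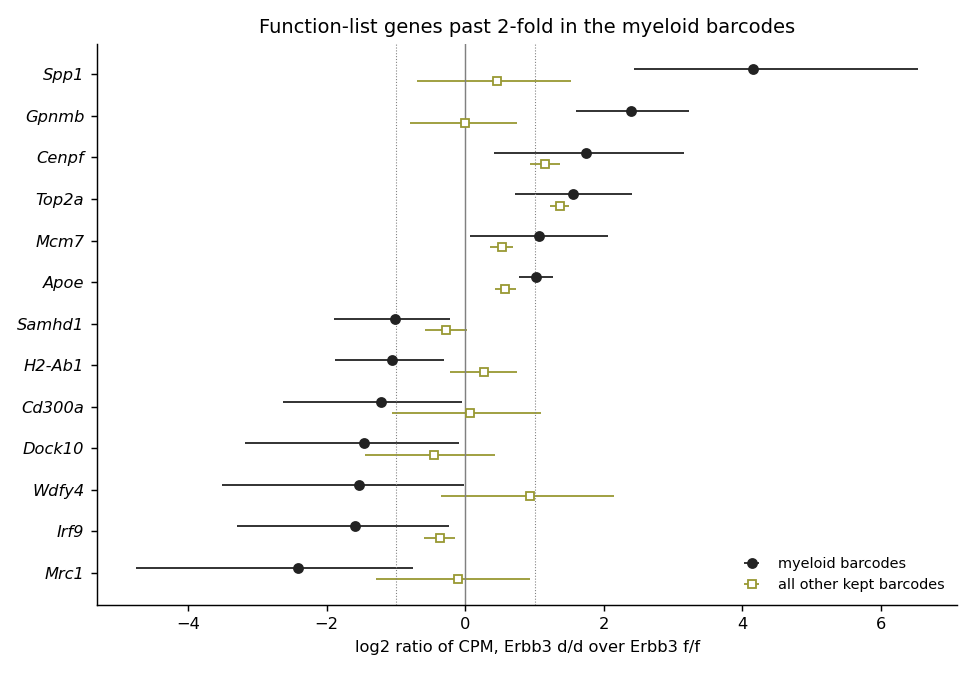
log2 ratio of CPM, d/d over f/f (horizontal axis), for the 13 reported genes of the function lists past 2-fold with a counting interval excluding 0, in myeloid barcodes (filled circles) and all other kept barcodes (open squares); bars are 95% counting intervals, dotted lines mark 2-fold, and Zbtb16 and Nr4a1, with 1 d/d UMI each, are left out. The intervals of H2-Ab1, Gpnmb, Spp1 and Apoe do not overlap those of the other barcodes, and Spp1 rests on 1 d/d barcode. Without that barcode and 1 dominant f/f barcode, the intervals of Gpnmb (0.58 to 2.43) and Apoe (0.50 to 1.01) do overlap. Those of the other barcodes are -0.80 to 0.75 and 0.43 to 0.73. The intervals of Mrc1 overlap in part, and Top2a lies close to the others' ratio.

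Leukocyte signalling genes had a lower sum in d/d. The 31 counted had a median log2 ratio of -0.44, beside -0.06 over all genes. Past 2-fold lower were 3, or 9.68%, near the 9.82% of all genes, and none was past 2-fold higher. Their sum was 10047 CPM in the control and 7846 CPM in d/d, a log2 ratio of -0.36 (-0.50 to -0.21), while the sum in all other kept barcodes had a ratio of 0.17. Of the 31, 27 were more than 4-fold enriched in myeloid barcodes, so their sum also moves with how much of each library's myeloid barcodes is leukocyte RNA. Dock10, a guanine nucleotide exchange factor, had 32 and 5 UMIs (-1.46, -3.18 to -0.09), Cd300a, an inhibitory receptor, 38 and 7 (-1.22, -2.63 to -0.04), and Wdfy4, needed for cross-presentation in dendritic cells, 27 and 4 (-1.54, -3.51 to -0.01). Fyb, an adaptor, had 150 and 41 UMIs (-0.65, -1.19 to -0.15). Tyrobp, the adaptor DAP12 of many myeloid receptors, had 74 and 23 UMIs (-0.47, -1.21 to 0.23), and Syk, the kinase it recruits, 96 and 30 (-0.46, -1.10 to 0.15). Arhgap15 was the highest of the list at 0.37.

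Complement and Fc receptor genes differed little beyond counting error. C1qb had a log2 ratio of 0.44 (-0.14 to 1.0), C1qa 0.09 (-1.08 to 1.18) and Fcer1g, the Fc receptor gamma chain with 47 and 14 UMIs, -0.53 (-1.50 to 0.36). The extremes of the list were the 2 integrin chains of complement receptor 3, Itgam (17 and 5 UMIs, -0.55, -2.34 to 0.95) and Itgb2 (0.67, -0.14 to 1.47). None of 7 counted was past 2-fold, beside 4.74% higher and 9.82% lower of all genes, with a median of 0.09. In the lysosome list Gpnmb was the 1 of 21 (4.76%) past 2-fold higher, beside 4.74% of all genes. Mcoln1 (18 and 3 UMIs, -1.37, -3.77 to 0.41) was the 1 past 2-fold lower (4.76%), beside 9.82%. The list's median was -0.13, and Ctsb, with 147 and 63 UMIs, had a ratio of 0.00 (-0.45 to 0.43). Of 18 myeloid transcription factors, 2 (11.1%) were past 2-fold higher, beside 4.74% of all genes, among them Runx3 (10 and 10 UMIs, 1.22, -0.20 to 2.64). None was past 2-fold lower, beside 9.82%, and the median was 0.03. Irf8, of monocytes and dendritic cells, had 28 and 9 UMIs (-0.42, -1.69 to 0.71) and Cebpa 43 and 21 (0.19, -0.64 to 0.97). Etv6, a repressor, was the lowest of them (18 and 5 UMIs, -0.63, -2.41 to 0.85). Among CSF receptors, Csf2ra, of the GM-CSF receptor, had 241 and 98 UMIs (-0.08, -0.43 to 0.27), between Il3ra at -0.28 and Csf3r at 0.28, and 4 genes had a median of -0.09.

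Inflammatory and interferon genes were mostly indistinct. Of 7 inflammatory genes counted, 1 (14.3%) was past 2-fold lower, beside 9.82% of all genes, and none higher, beside 4.74%. It was Myd88, the Toll-like receptor adaptor, with an interval including 0 (27 and 5 UMIs, -1.21, -2.95 to 0.18). The median was -0.50, and the highest was Casp1, the inflammasome protease, at 0.22. Of 9 interferon genes, 3 (33.3%) were past 2-fold lower, beside 9.82% of all genes, and none higher, beside 4.74%, around a median of -0.03. Samhd1, a nucleotide hydrolase, had 75 UMIs in 53 control barcodes and 16 in 12 d/d barcodes (-1.01, -1.89 to -0.22), and Irf9, a subunit of the interferon-responsive factor ISGF3, had 35 and 5 (-1.59, -3.30 to -0.23), at levels near those of other barcodes. Stat2, which joins Irf9 in that factor, had 19 and 3 UMIs (-1.44, -3.84 to 0.32). The 3 chemokine and receptor genes counted, among them Ccr2 (-0.85) and Cxcl16 (-0.16), each had a ratio with an interval including 0. In the alternative activation and remodelling list the median was 0.40 (-0.02 to 0.81) over 10 genes, with Pdgfa the lowest (-0.23). The median over all genes was -0.06. Spp1 was the 1 past 2-fold higher (10%, beside 4.74% of all genes), and none was past 2-fold lower, beside 9.82%. The log2 ratio of the summed list over all other kept barcodes was -0.03 in the control and 0.37 in d/d. Only 1 of its genes was past 4-fold over them in both libraries. Tgfbr2, a TGF-beta receptor, had 27 and 21 UMIs (0.86, -0.04 to 1.73).

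Of 32 proliferation genes only 3 reached 20 UMIs, Top2a (23 and 29 UMIs), Cenpf (9 and 13) and Mcm7 (20 and 18). All 3 were past 2-fold higher in d/d, beside 4.74% of all genes counted, with log2 ratios of 1.55, 1.75 and 1.07. Over the whole list the log2 ratio was 1.13 (0.84 to 1.42) in myeloid barcodes and 1.18 in all other kept barcodes, whose level was also higher (1880 and 4262 CPM, against 1335 and 2929 CPM). The part of RNA from other cells in the myeloid values was not tested. The 10 lowest genes of the comparison included Rims3, Slc23a1, Zcchc10, Meis2, Dnajc13, Fbxw5, Pmp22, Pak1 and Pcsk5. Slc23a1 is a vitamin C transporter, Meis2 a homeobox factor and Pak1 a kinase of the cytoskeleton, and none of these is a myeloid marker. Each had 21 to 33 UMIs in the control and 1 UMI in d/d, and log2 ratios from -3.83 to -3.17 with intervals reaching past -8. Rims3 was at 296 CPM in other control barcodes and 26.1 CPM in other d/d barcodes, and Zcchc10 at 309 and 57.7, log2 ratios of -3.50 and -2.42. The ratios in other barcodes were -1.51 for Pcsk5, -0.92 for Slc23a1 and -0.66 for Pak1. They were nearer 0 for Fbxw5 (-0.34), Dnajc13 (-0.32), Meis2 (-0.31) and Pmp22 (-0.25). Over both libraries, the Meis2 level in the highest other gated class was 12.3 times that in the myeloid barcodes. Among steroid-response genes, Zbtb16, which progesterone and glucocorticoids induce, also had 20 UMIs in the control and 1 in d/d (-3.10, -8.48 to -0.46), and was at 203 and 154 CPM in the others. The steroid list's median over 6 genes was -0.18, with Pgr, the progesterone receptor, the highest at 0.58, and that of 8 heat shock and immediate early genes 0.04.

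Of the other genes among the 10 highest ratios, Gbp8, an interferon-induced guanylate-binding protein, had 6 and 14 UMIs (2.44, 0.97 to 4.11), with a ratio of 2.36 in the other barcodes. Trim30a, also interferon-induced, had 7 UMIs in 6 control barcodes and 15 in 13 d/d barcodes (2.32, 0.94 to 3.85), against 0.68 in the others. Lars, a tRNA synthetase (7 and 13 UMIs), Tacc3, a spindle protein (7 and 13), Rbbp5, of histone methyltransferase complexes (8 and 14), and C3, the complement protein (9 and 15), had control levels below those of the other control barcodes. Over both libraries, C3 in the highest other gated class was at 12.4 times its level in the myeloid barcodes.

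**Figure D4:**
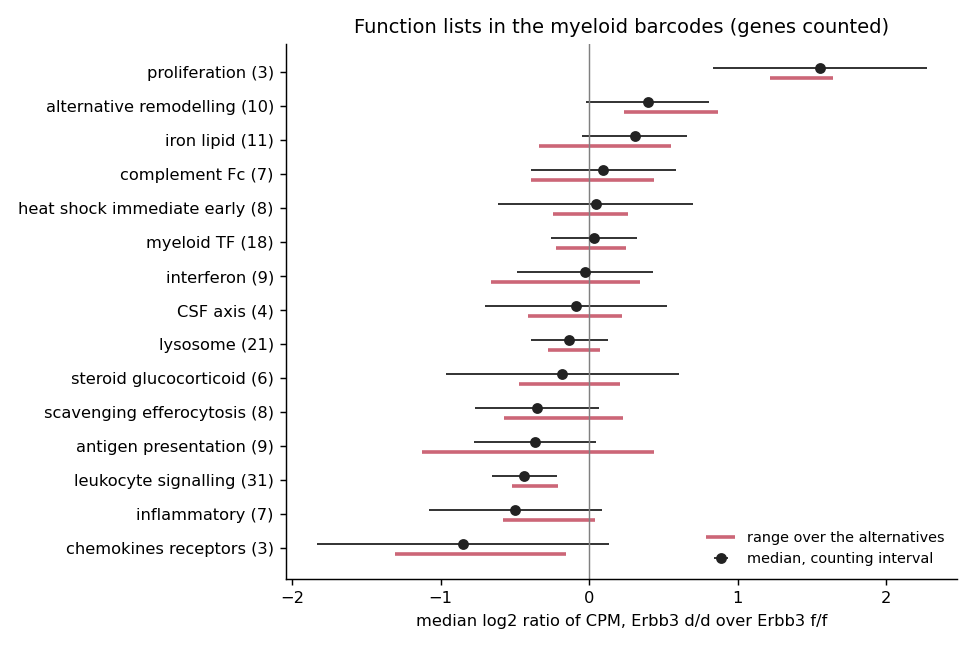
Median log2 ratio of CPM, d/d over f/f (horizontal axis), of 15 function lists in myeloid barcodes, with the number of genes counted in brackets; points carry an approximate 95% counting interval, and red lines span the alternatives of filtering and scaling. The leukocyte signalling median stayed below 0 and the alternative remodelling median above 0 under each alternative run, whereas the antigen presentation median ran from -1.13 to 0.44. The counting interval of the alternative remodelling median includes 0 (-0.02 to 0.81).

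ErbB pathway genes were scarce in the myeloid barcodes. None of the 15 listed ligands, receptors and regulators reached 20 UMIs: Erbb2 had 11 UMIs in the control and 3 in d/d, Egfr 11 and 2, Errfi1, a feedback inhibitor of the receptors, 3 and 4, and Erbb3 1 and 1. At these counts a difference between the libraries was not detectable.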

How the data were processed

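Endometrial single cells of 1 Erbb3 f/f and 1 Erbb3 d/d library were measured with a Chromium Flex probe assay. The deposited values were raw UMI counts per gene and barcode, written by version 9.0.0 of Cell Ranger (per the file headers) and not normalised. The submitters' processing notes list builds mm10 and GRCm39 without a role. The files name 19070 genes, and only barcodes called as cells were used. Barcodes were gated as given above; the gated classes are markers only, with no clustering. UMIs were summed per library and divided by the total of the same barcodes (CPM). Genes needed 20 UMIs over both libraries. Sums have exact Poisson, shares exact Clopper-Pearson and ratios exact conditional binomial 95% intervals; ratios of barcode numbers and list medians have approximate ones. They cover counting error only. A count of 0 was set to 3 counts in ratios. No p-value was computed, since cells are not replicates. Flex probes differ in efficiency, so levels were not compared between genes. Scrublet in scanpy 1.11.5 called 1 f/f and 5 d/d barcodes doublets, too few to have worked; no doublet was removed, and the 5% of highest scores were left out as an alternative. Scaling alternatives used edgeR's TMM and DESeq2 size factors, with no count model. Ratio code was tested on simulated data.

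Named genes were the 8 rule genes, the 20 leading genes, the 10 highest and 10 lowest ratios, and members of 16 function lists past 2-fold with an interval excluding 0 or at a list's extremes, and the leading marker of each lineage list; other genes of the lists and the 2 dominant barcodes were named after their values were seen. A few genes that these choices take in are not reported here; they remain in the counts and medians. The members and lists were chosen with earlier results of these data known.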

Additional observations from a re-analysis of the deposited data

Results flagged for a closer look

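Nr4a1 had a d/d over f/f log2 ratio of -3.03 in myeloid barcodes and of 0.83 in all other kept barcodes. These ratios have opposite signs, and the difference between them was not tested. Of the 19 f/f myeloid UMIs, 14 lay in 1 barcode. Without that barcode 5 f/f UMIs and 1 d/d UMI remained, too few to give a direction in the myeloid barcodes.

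Barcodes above the mitochondrial limit, left out of the comparisons given above, also held myeloid markers: 26 of 295 in d/d (8.81%) and 12 of 280 in f/f (4.29%) met the marker part of the rule. With the limit at 20% there were 173 f/f and 93 d/d myeloid barcodes, and Mrc1, Apobec1 and Apoe had log2 ratios of -2.23, 2.27 and 0.99.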

How the results depend on the processing

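The difference in the share of myeloid barcodes among kept barcodes ran from 0.11 to 1.55 points over 13 alternatives. Genes past 2-fold higher numbered 90 with a Csf1r, Stab1 or Pirb UMI required, 57 without any gate UMI of another class, 543 at a minimum of 10 UMIs, 17 at 50, 1751 with only 1 UMI in each library and 70 with barcodes thinned to 500 UMIs; those past 2-fold lower numbered 207, 124, 823, 53, 1205 and 162. Each of these alternatives changes the number of genes or UMIs tested. Enriched genes numbered 85 at a minimum of 50 UMIs and 453 with only 1 UMI in each library. The antigen presentation median was 0.34 at a marker sum of 3, 0.25 without Cd74 in the rule, -1.13 with a Csf1r, Stab1 or Pirb UMI, -1.09 without other gate UMIs, 0.44 without lymphoid UMIs and 0.0797 without the 2 dominant barcodes; the cause was not tested. Without lymphoid UMIs the medians of scavenging, alternative remodelling and leukocyte signalling were 0.23, 0.82 and -0.21. With a Csf1r, Stab1 or Pirb UMI those of alternative remodelling and interferon were 0.87 and -0.66, and thinning gave -0.34 for iron and lipid. Mrc1 ranged from -3.70 to -2.06, H2-Ab1 from -2.11 to -0.82, Gpnmb from 1.5 to 3.58, Apobec1 from 1.83 to 2.35 and Apoe from 0.76 to 1.47, each in 1 direction under every alternative that left it 20 UMIs; 183 gene values fell short of that and are not given. No paired analysis was possible because each genotype has 1 library. With 69 d/d barcodes, genes of under 100 UMIs carry counting errors near the 2-fold threshold.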

Other observations

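Several enriched genes outside the fixed lists also differed between the libraries and are given as values, chosen after they were seen. Pld4, an endolysosomal nuclease of phagocytes, had 48 UMIs in 33 f/f myeloid barcodes and 5 in 5 d/d barcodes (log2 ratio -2.04, -3.73 to -0.72). Fgd2, an exchange factor of antigen-presenting cells, had 71 UMIs in 49 barcodes and 14 in 9 (-1.12, -2.07 to -0.28), and Irag2 46 UMIs in 37 barcodes and 5 in 5 (-1.98, -3.67 to -0.66). Card9, an adaptor of innate immune receptor signalling, had 32 control UMIs and 5 d/d UMIs. Rgs10, a regulator of G-protein signalling, had 54 and 10 UMIs (-1.21, -2.35 to -0.23). In the other direction, Ctsw, a protease of cytotoxic lymphocytes, had 11 UMIs in 7 f/f barcodes and 16 in 9 d/d barcodes (1.76, 0.56 to 3.01). Slc9a9, an endosomal sodium-proton exchanger, had 13 UMIs in 13 barcodes in f/f and 14 in 13 barcodes in d/d (1.33, 0.13 to 2.53).

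Ace, a marker of patrolling monocytes, had 25 UMIs in 5 f/f myeloid barcodes, 18 of them in 1 barcode, and none in d/d. Igha had 34 UMIs in each library, in 12 f/f and 11 d/d myeloid barcodes.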
